A study of Mus musculus with 7 samples.

Results

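A growing mouse oocyte makes the mRNAs it will need after transcription has stopped, and holds many of them silent in the cytoplasm with short poly(A) tails. CPEB1 binds U-rich elements in the 3′ ends of such mRNAs and directs both their repression and the lengthening of their tails at meiotic maturation. The proteins that work with it coat, cap or cluster the stored mRNAs, and several of these genes are needed for female fertility in the mouse. The 10 genes examined here share these functions, and they were Cpeb1, Ybx2, Lsm14b, Ddx6, Zar1, Zar1l, Eif4enif1, Pabpc1l, Patl2 and Dazl. For 8 of the 10 the oocyte transcript table, which lists 33437 transcripts in all, held a row under the gene's own symbol and on its own strand, 1 row for each gene. The row over Eif4enif1 carried the label of Drg1, a gene on the opposite strand, and was matched by position. The only row over Zar1l was labelled Gm5 and also spanned the noncoding gene Gm5 and the pseudogene Gm15933, so reads of these genes could not be divided there.

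RNA had been sequenced from single germinal vesicle (GV) oocytes of 21-day-old C57BL6 females, 1 oocyte per library. By the labels all females carried 2 floxed Setd1b alleles and differed in Gdf9-Cre, a recombinase expressed in oocytes from early follicle growth. The 4 Setd1b cKO oocytes carried Cre, which by design removes the H3K4 methyltransferase SETD1B, and the 3 Setd1b WT oocytes are labelled Cre negative. The study's methods also allow heterozygous females with Cre as Setd1b WT, so the genotype of these controls rests on the labels. Since the mother of each oocyte is not labelled, p-values measure the spread between these libraries. The comparison asks whether oocytes grown without SETD1B had other levels of the mRNAs for storage and polyadenylation factors.

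The libraries held 8582493 to 12972366 mapped reads, and values are RPM (mapped reads scaled to the depth of each library), in which 3 reads correspond to 0.231 to 0.350 RPM. Of 12 oocyte markers 11 were found, all at 1 RPM or more, with a summed level of 16278 to 19864 RPM in cKO and 22226 to 26326 RPM in WT libraries. Of 18 granulosa cell markers found, 11 averaged under 1 RPM and Krt18 was at 0 reads in every library, and the summed level was 110 to 156 RPM in cKO and 175 to 215 RPM in WT. Of 10 markers of other ovarian and blood cells found, 9 averaged under 1 RPM and 4 were at 0 throughout, with sums of 8.27 to 19.4 RPM in cKO and 13.2 to 20.9 RPM in WT. The part of these markers in the results was not tested. Setd1b itself, matched by position on a row labelled Gm26745, was counted over its whole locus and so not over the deleted part alone. It was at 8.31, 16.7, 12.8 and 2.68 RPM in cKO and at 17.7, 16.3 and 8.61 RPM in WT libraries, which overlapped (log2 fold change -0.61, adjusted p = 0.533). That log2 fold change was -0.15 without cKO 4 and -0.91 without WT 3, and 1 opposite-strand transcript overlaps the row. cKO 4 and WT 3 stood apart from the other libraries on the second principal component (31.0% of the variance), at -44.7 and -64.3 against -6.52 to 52.6.

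None of the 8 genes found by symbol, and neither of the rows found by position, passed the threshold in limma, a change of more than 2-fold at an adjusted p under 0.05, which 5.71% of the 18179 tested transcripts passed. All 10 rows were among the tested transcripts, and 1 of the 10, Ybx2, had an unadjusted p under 0.05, as 21.7% of all tested transcripts did. voom on the recovered reads also called 0. Over all transcripts 683 were called higher and 355 lower in cKO, a balance that turned with the scaling, to 458 and 531 with libraries centred on the median transcript and 428 and 442 with quantile normalisation. The log2 fold change was below 0 for 7 of the 8 genes, with a median of -0.15, whereas it was below 0 for 39.7% of all tested transcripts, with a median of 0.12. Scaled to reads in transcripts, the median of the 8 genes was -0.0769 and that of all transcripts 0.20. Fold changes are differences of means on the log2(RPM + 1) scale, cKO minus WT.

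Ybx2 encodes the germ cell Y-box protein MSY2, which coats and stabilises stored mRNAs. It was at 37.6, 35.1, 43.2 and 26.8 RPM in the cKO libraries and at 55.5, 59.6 and 54.3 RPM in the WT libraries. Every cKO library was below every WT library, and Ybx2 was the only one of the 10 genes without overlap between genotypes, a separation in this direction that 7.14% of all tested transcripts showed. The cKO mean of 35.7 ± 6.81 RPM (SD, n = 4) was 63.2% of the WT mean of 56.4 ± 2.79 RPM (SD, n = 3). The log2 fold change was -0.67 (SE 0.22, 95% interval -1.15 to -0.18), with a limma p of 0.0120 and an adjusted p of 0.104. Without cKO 4 and WT 3 it was -0.57 (adjusted p = 0.105). Over all 21 alternatives the adjusted p ran from 0.0495 to 0.287, and it was under 0.05 only with each library centred on its median transcript (log2 fold change -0.82), where the change was still under 2-fold.

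ZAR1 and ZAR1L are zinc finger RNA-binding proteins of the oocyte, which hold translationally repressed maternal mRNAs. Zar1 was at 85.5, 83.2, 135 and 149 RPM in cKO and at 119, 135 and 228 RPM in WT libraries. The row over Zar1l was at 349, 357, 415 and 571 RPM in cKO and at 484, 575 and 715 RPM in WT libraries. In both genes the highest cKO library was cKO 4 and the highest WT library WT 3, and the genotypes overlapped. Zar1 averaged 113 ± 34.0 RPM (SD, n = 4) against 161 ± 58.4 RPM (SD, n = 3), a log2 fold change of -0.49 (95% interval -1.15 to 0.17, adjusted p = 0.385), which was -0.21 without WT 3 (adjusted p = 0.727). The Zar1l row gave the same log2 fold change to 2 decimals, -0.49 (95% interval -1.04 to 0.05, adjusted p = 0.278), and without cKO 4 and WT 3 it was -0.50 (adjusted p = 0.0945). With all libraries both 95% intervals included 0, and neither adjusted p was under 0.05.

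Cpeb1, the gene of the element-binding protein itself, was at 160, 158, 149 and 141 RPM in cKO and at 153, 170 and 149 RPM in WT libraries. These were among the tightest values of the group, with means of 152 ± 8.66 RPM (SD, n = 4) and 158 ± 11.2 RPM (SD, n = 3). The log2 fold change was -0.05 with a 95% interval of -0.46 to 0.36 (adjusted p = 0.914). Dazl, an RNA-binding protein that promotes translation of maternal mRNAs together with CPEB1, was at 548, 675, 575 and 445 RPM in cKO and at 760, 692 and 539 RPM in WT libraries. Its log2 fold change was -0.24 (95% interval -0.75 to 0.26, adjusted p = 0.605). An opposite-strand transcript overlaps the Dazl row, and whether the counting used strand is not given in the sources used here.

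The partners that hold the cap and gather mRNAs into granules overlapped between genotypes. Eif4enif1 encodes 4E-T, which binds the cap protein eIF4E and blocks translation. It was at 124, 170, 133 and 125 RPM in cKO and at 186, 171 and 161 RPM in WT libraries, and only cKO 2 lay within the WT range (log2 fold change -0.33, 95% interval -0.78 to 0.11, adjusted p = 0.386). Lsm14b, a granule protein required for storage in oocytes, was at 96.9, 134, 119 and 160 RPM in cKO and at 114, 141 and 127 RPM in WT libraries. The WT libraries lay inside the cKO range, and the log2 fold change was -0.02 (95% interval -0.51 to 0.47, adjusted p = 0.979), on a row that overlaps 2 opposite-strand transcripts. Ddx6, a DEAD-box helicase of repressed mRNA particles, was at 12.8, 21.7, 28.9 and 8.39 RPM in cKO and at 12.7, 14.6 and 11.2 RPM in WT libraries. It was the only gene of the 10 with a log2 fold change above 0, at 0.32, and its interval of -0.51 to 1.14 was wide (adjusted p = 0.692). That value rested on single libraries, at 0.0529 without cKO 3 and 0.61 without cKO 4. Patl2, an oocyte protein of the PAT family that represses translation, was at 64.6, 114, 80.4 and 22.02 RPM in cKO and at 115, 76.2 and 39.95 RPM in WT libraries. Patl2 had the widest interval of the group, -1.35 to 0.90 around a log2 fold change of -0.23 (adjusted p = 0.855), and its lowest libraries were cKO 4 and WT 3. Pabpc1l encodes the embryonic poly(A)-binding protein EPAB, which binds the lengthened tails. It was at 88.0, 102, 72.5 and 77.4 RPM in cKO and at 96.1, 102 and 73.0 RPM in WT libraries, and the genotypes covered nearly the same range (log2 fold change -0.08, 95% interval -0.56 to 0.40, adjusted p = 0.874).

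**Figure D1:**
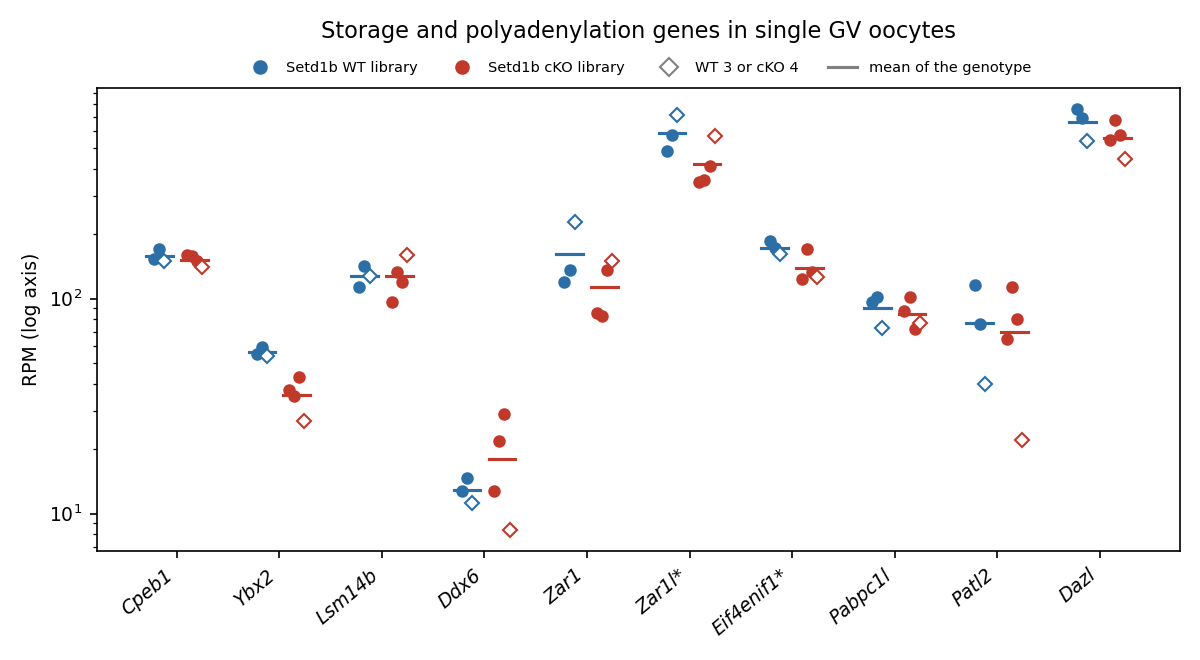
Level of each gene in RPM (log axis) in every Setd1b WT (blue) and Setd1b cKO (red) library, with the mean of each genotype as a line; open diamonds are WT 3 and cKO 4, and an asterisk marks rows matched by position. In Ybx2 alone the cKO libraries (26.8 to 43.2 RPM) all lie below the WT libraries (54.3 to 59.6 RPM).

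**Figure D2:**
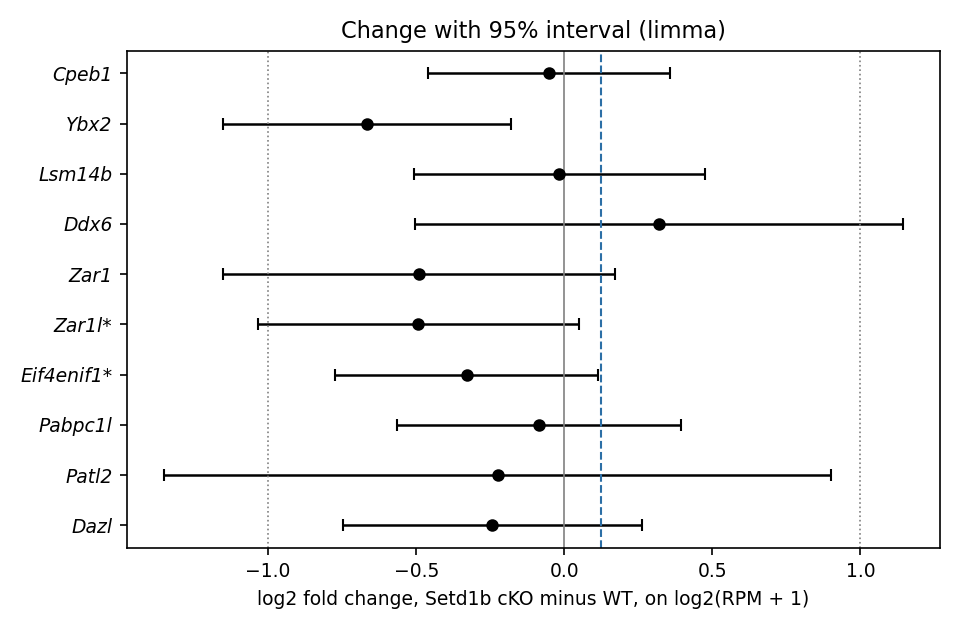
Log2 fold change (cKO minus WT, on log2(RPM + 1)) of each gene with its 95% interval from limma; dotted lines mark a 2-fold change, the solid line 0 and the dashed line the median of all tested transcripts (0.12). The interval leaves out 0 only for Ybx2 (-1.15 to -0.18).

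In all, the 95% interval lay inside 2-fold in both directions for 5 of the 10 rows, Cpeb1, Lsm14b, Eif4enif1, Pabpc1l and Dazl. It reached 2-fold lower for 4 rows (Ybx2, Zar1, the Zar1l row and Patl2) and 2-fold higher for 1 (Ddx6), so changes of that size lay within the error of these genes at this number of oocytes. The 8 genes found by symbol together held 0.116% ± 0.0129 (SD, n = 4) of mapped reads in cKO and 0.135% ± 0.0109 (SD, n = 3) in WT libraries (exact permutation test, two-sided p = 0.114). With the rows over Zar1l and Eif4enif1 added, the shares were 0.172% ± 0.0117 (SD, n = 4) and 0.211% ± 0.00238 (SD, n = 3), and p was 0.0571 (exact permutation test, two-sided), the smallest that this test can give for 4 against 3, so it could not have reached 0.05. This addition was not planned, and the Zar1l row also counts reads over Gm5 and Gm15933. In that sum every cKO library, at 0.157%, 0.185%, 0.175% and 0.173%, was below every WT library, at 0.210%, 0.214% and 0.210%. The 8 genes alone overlapped, with cKO 2 at 0.132% and WT 3 at 0.122%. The oocyte transcripts as a whole also took a smaller share of mapped reads in cKO (83.6% to 86.8%) than in WT libraries (90.1% to 90.4%). As a share of reads in transcripts, chosen after seeing the data, the 8 genes held 0.136% ± 0.0143 (SD, n = 4) and 0.149% ± 0.0121 (SD, n = 3; exact permutation test, two-sided p = 0.286), and the 10 rows 0.202% ± 0.0116 and 0.234% ± 0.00305, again without overlap. The share counts reads of an oocyte's library, so a change in the total RNA of an oocyte would not appear in it.

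Per kilobase of annotated exons, WT oocytes held more Dazl than any of the other 8 genes for which this could be computed, at 141 to 199 RPM per kilobase, and less Ddx6, at 1.40 to 1.82. Between them, in falling order, stood Zar1 (mean 46.4 RPM per kilobase), Lsm14b (44.0), Cpeb1 (37.6), Pabpc1l (33.2), Patl2 (31.7), Ybx2 (29.9) and Eif4enif1 (27.1), and each neighbouring pair of these 7 overlapped in range. Zar1l was left out of this order since its row spans other genes. All 10 rows were above 62.0% of the tested transcripts by mean RPM, and Dazl was above 99.1%.

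For 7 of the 10 rows cKO 4 and WT 3 were both at the same end of their genotype. They were the lowest libraries of their genotype for 5, Cpeb1, Ybx2, Ddx6, Patl2 and Dazl, and the highest for 2, Zar1 and the Zar1l row. Patl2 in cKO 4 was at 0.255 times the mean of cKO 1 to 3, and in WT 3 at 0.417 times the mean of WT 1 and 2. Zar1 was at 1.47 and 1.79 times these means. For Dazl the corresponding ratios were 0.742 and 0.742, and for Cpeb1 they were 0.906 and 0.923. Without these libraries the SE of the log2 fold change of Patl2 was 0.25 in place of 0.51, at a log2 fold change of -0.16 (adjusted p = 0.752), and Zar1 had a log2 fold change of -0.36 (adjusted p = 0.352). The labels name no batch that these oocytes share.

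**Figure D3:**
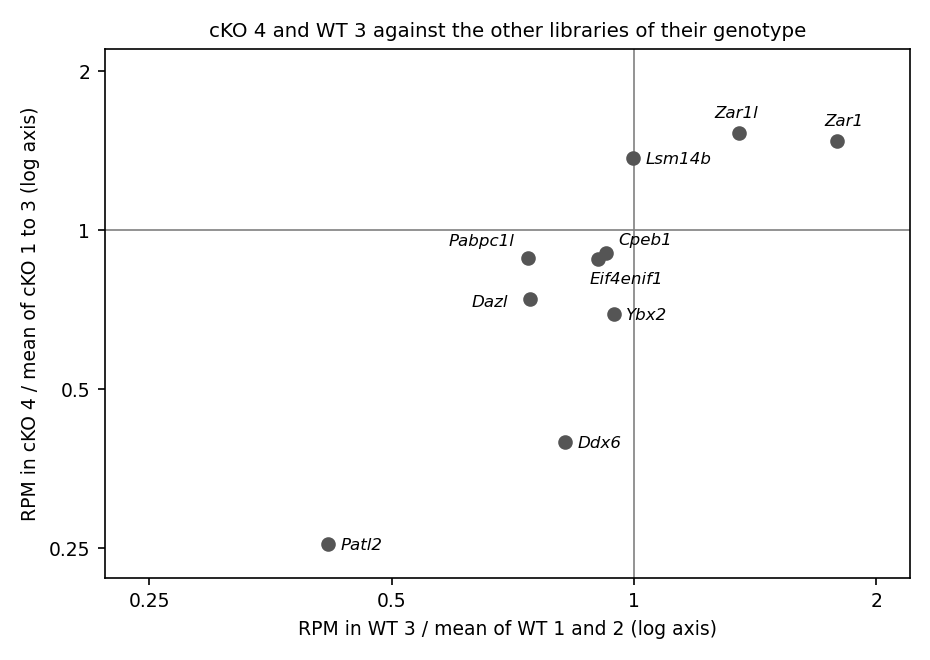
RPM in cKO 4 divided by the mean of cKO 1 to 3 (vertical) against RPM in WT 3 divided by the mean of WT 1 and 2 (horizontal), for each gene, on log axes; grey lines mark a ratio of 1. Zar1 and the Zar1l row lie above 1 in both (1.47 and 1.79 for Zar1), and Patl2 lies farthest below (0.255 and 0.417).

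The promoters are shown because SETD1 complexes contain CFP1, a subunit that binds unmethylated CpG, and because the genes above differ widely in CpG. RefSeq promoter windows (GRCm38.p6, 250 bases before to 50 bases after the start) matched 9 of the 10 genes, and the window whose start was nearest to that of the oocyte transcript was taken. The windows of Ybx2, Zar1 and Zar1l are printed as examples of a CpG-rich, a moderate and a CpG-poor window. Capitals mark CpG dinucleotides, and each sequence reads 5′ to 3′ on the strand of the gene.
Ybx2, chr11:69935649-69935948, plus strand: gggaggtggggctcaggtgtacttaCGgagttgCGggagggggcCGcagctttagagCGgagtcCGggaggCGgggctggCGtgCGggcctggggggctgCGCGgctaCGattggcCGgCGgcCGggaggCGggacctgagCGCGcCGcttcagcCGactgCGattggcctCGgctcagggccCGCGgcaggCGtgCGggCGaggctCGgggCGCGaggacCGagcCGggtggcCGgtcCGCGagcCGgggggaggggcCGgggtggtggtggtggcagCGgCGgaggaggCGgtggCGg
Zar1, chr5:72581035-72581334, minus strand: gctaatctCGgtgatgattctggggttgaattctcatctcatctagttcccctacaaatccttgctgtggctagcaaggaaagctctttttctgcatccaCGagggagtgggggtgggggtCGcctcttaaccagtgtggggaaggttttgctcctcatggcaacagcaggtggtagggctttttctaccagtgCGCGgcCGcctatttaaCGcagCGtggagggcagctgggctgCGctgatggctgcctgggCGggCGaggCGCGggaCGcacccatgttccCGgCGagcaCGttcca
Zar1l, chr5:150518110-150518409, minus strand: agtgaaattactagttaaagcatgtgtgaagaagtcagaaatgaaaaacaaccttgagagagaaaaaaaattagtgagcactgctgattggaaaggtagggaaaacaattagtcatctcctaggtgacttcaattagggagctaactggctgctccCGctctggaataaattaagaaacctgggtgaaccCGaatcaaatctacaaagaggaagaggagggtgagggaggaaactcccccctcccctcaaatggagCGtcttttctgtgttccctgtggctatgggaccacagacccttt
The Ybx2 window held 40 CpGs, more than 96.1% of the 32851 promoters in the table, whose median was 7 and whose middle range ran from 3 to 20. Zar1 held 17 and Zar1l 3, and of the other genes Lsm14b (log2 fold change -0.02) also held 40, Cpeb1 (-0.05) 33, Dazl 28, Eif4enif1 27, Patl2 10 and Pabpc1l 7. Only Zar1l was below the median of the table. The oocyte transcript started 286 bases from the start in the Ybx2 window and 428 from that of Zar1, but 5347 from that of Lsm14b and 5019 from that of Zar1l, so in those genes the window may not be the start that oocytes use. The E-box CANNTG, which FIGLA and other bHLH factors bind, reads the same on both strands and occurred in all 9 windows and in 72.3% of all promoters. TAATTG, an element bound by the oocyte homeobox factor NOBOX, was searched on both strands and occurred in Zar1l alone, at 2 places and as its reverse complement, and in 8% of all promoters. TATAAA, also searched on both strands, occurred in 13.6% of all promoters and here in Cpeb1 alone, as its reverse complement, and no match overlapped another in these 9 windows.

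The 3′ ends are shown because CPEB1 acts through the elements TTTTAT and TTTTAAT close to the cleavage signal AATAAA or ATTAAA. The last 100 bases of the annotated transcript that ended nearest to the oocyte row were read (GENCODE M21, GRCm38, strand of the mRNA). For Zar1l and most of the 19830 genes, the transcript with the longest 3′ untranslated region was used, so their shares follow another rule. TTTTAT or TTTTAAT was present in 1 of 9 genes, Ybx2, against 17.8% of 19830 genes. The cleavage hexamer was found in the other 8, among them Zar1 and Dazl, and in 78.5% of genes. Ybx2 had no hexamer in its window, so 0 of the 9 genes had both, against 14.35% of genes. Capitals mark the TTTTAT of Ybx2 and the hexamer of the others. Mos, whose mRNA is a classical target of CPEB1, is added for the comparison that follows, although its window held neither TTTTAT nor TTTTAAT.
Ybx2, chr11:69941532-69941561, plus strand: cctctgaagccaTTTTATgaactgtcatgt
Zar1, chr5:72577117-72577146, minus strand: ataaagcctgtgAATAAAaggtattgcaaa
Dazl, chr17:50279400-50279429, minus strand: cttgtatacacgAATAAAacctttttttca
Mos, chr4:3870661-3870690, minus strand: atatttttaggaAATAAAgttaccacgaac
The TTTTAT of Ybx2 began 62 bases before the annotated end, and the oocyte row ended 1 base from that end. For Zar1 and Mos the oocyte rows ended 2184 and 10591 bases from the annotated ends, so the windows shown for these genes may not be the ends used in oocytes. TTTTAT or TTTTAAT was present in 6 of 12 stored mRNAs that were read in the same way, without Mos, and together with a hexamer in 5. A match describes these letters in this window, and no tail length was measured.

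Of the mRNAs that such factors store, Mos was called lower in Setd1b cKO oocytes. Since cDNA was primed on poly(A) tails and tail length was not measured, less mRNA and shorter tails cannot be told apart in these values. Mos, the kinase that holds the mature egg at metaphase II, was at 196, 204, 163 and 201 RPM in cKO and at 551, 406 and 500.2 RPM in WT libraries. All cKO libraries were below all WT libraries, as for 7.14% of all tested transcripts. The cKO mean was 39.3% of the WT mean (log2 fold change -1.34, SE 0.20, 95% interval -1.79 to -0.88, adjusted p = 0.00581). Mos was the only one of 8 tested members of the list of stored mRNAs to pass the threshold, which 1.95% of all tested transcripts passed downwards, and the median of the list was -0.18. The Mos row is longer than the annotated gene and overlaps 2 opposite-strand transcripts, so some of its reads may belong elsewhere. Btg4, which recruits the CCR4-NOT deadenylase to maternal mRNAs, was at 1779, 1759, 1523 and 1491 RPM in cKO and at 2885, 3092 and 2597 RPM in WT libraries. These did not overlap either, again as for 7.14% of all tested transcripts. The log2 fold change was -0.80 (95% interval -1.28 to -0.32), but Btg4 missed both limits of the threshold (adjusted p = 0.0559). Over 21 alternatives its adjusted p ran from 0.00862, without cKO 4 and WT 3, to 0.262 with quantile normalisation (log2 fold change -0.47), and the change never exceeded 2-fold. The Btg4 row covers only the last part of the annotated gene, runs past its end and overlaps 1 opposite-strand transcript. Ccnb1, the cyclin whose translation drives the meiotic divisions, was at 362 to 1307 RPM in cKO and 562 to 1416 RPM in WT, with the lowest value of each genotype in cKO 4 and WT 3 (log2 fold change -0.23, adjusted p = 0.825).

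The wider machinery was described in lists by function, to be read against the 5.71% of all tested transcripts that passed the threshold in either direction and the 21.7% with an unadjusted p under 0.05. Of 18 tested granule and cap-binding partners 0 passed the threshold, with a median log2 fold change of 0.06 and 1 at an unadjusted p under 0.05. Of those found by symbol, the highest mean levels were those of Eif4e, the cap-binding protein (0.06, adjusted p = 0.937), and Stau1, a double-stranded RNA-binding protein (-0.17, adjusted p = 0.769). The 1 member was Eif4e1b, the oocyte cap-binding protein found with CPEB1, here named after its values were seen. It was at 46.7, 35.7, 44.3 and 49.4 RPM in cKO and at 55.1, 60.2 and 77.9 RPM in WT libraries (log2 fold change -0.53, adjusted p = 0.184). These did not overlap, a separation in this direction that 7.14% of all tested transcripts showed.

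Of 19 tested genes for poly(A) tail addition and binding 0 passed the threshold and 0 had an unadjusted p under 0.05, with a median of 0.02. With rows matched by position added, 26 were tested, 0 passed the threshold and 2 had an unadjusted p under 0.05, the cleavage factor genes Pcf11 (-0.81, adjusted p = 0.159) and Cpsf2 (-0.70, adjusted p = 0.191), named after their values were seen. The most abundant members found by symbol were the polyadenylation complex subunits Wdr33 (0.10, adjusted p = 0.838) and Fip1l1 (-0.25, adjusted p = 0.506). Of the Cpeb1 paralogues, named after their values were seen, Cpeb4 was at 14.5 to 18.9 RPM in cKO and 10.2 to 13.5 RPM in WT (log2 fold change 0.48, adjusted p = 0.261). Cpeb3 was at 17.1 to 19.9 RPM in cKO and 21.6 to 22.4 RPM in WT (log2 fold change -0.28, adjusted p = 0.489), on a row that overlaps 4 opposite-strand transcripts. Genotypes did not overlap in either gene, as was the case upwards for 13.2% and downwards for 7.14% of all tested transcripts. Cpeb2, matched by position on a row labelled Gm7854, at 1.29 to 2.70 RPM in cKO and 0.891 to 1.87 RPM in WT, overlapped (log2 fold change 0.17, adjusted p = 0.800). Of 20 tested other RNA-binding regulators 0 passed the threshold, with a median of 0.11 and 1 at an unadjusted p under 0.05. Igf2bp2 (-0.40, adjusted p = 0.316) and Larp4b (-0.67, adjusted p = 0.2503) had the highest mean levels of those found by symbol.

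Of 13 tested genes for deadenylation and uridylation the threshold was passed, upwards, by 1, with a median of 0.11 and against 3.76% of all tested transcripts. The row was that of Tut4, a terminal uridylyltransferase, whose row was at 1.98, 2.22, 1.65 and 4.54 RPM in cKO and at 0.08, 0.15 and 0.00 RPM in WT libraries. These WT values were 1, 2 and 0 reads, at or under the limit of 3 reads, so no fold is given. The row met the filter of 1 RPM in 3 libraries only through the cKO libraries and was past the threshold only with such a filter, so its values are given as a description with no test. An opposite-strand transcript overlaps its end. Cnot6l, a deadenylase catalytic subunit, was at 135 to 199 RPM in cKO and 139 to 200 RPM in WT (0.05, adjusted p = 0.936). With genes matched by position added, 101 genes of the 5 lists were tested, of which 2 were called lower, near the 1.95% of all tested transcripts. These were Mos and Pabpn1l, a nuclear poly(A)-binding protein homologue of the oocyte and of maternal mRNA clearance. Pabpn1l was at 18.3, 18.7, 15.9 and 8.51 RPM in cKO and at 305, 202 and 197 RPM in WT libraries (log2 fold change -3.88, SE 0.30, adjusted p = 0.000411). By symbol alone, 76 were tested, of which 1, Mos, was called lower.

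**Figure D4:**
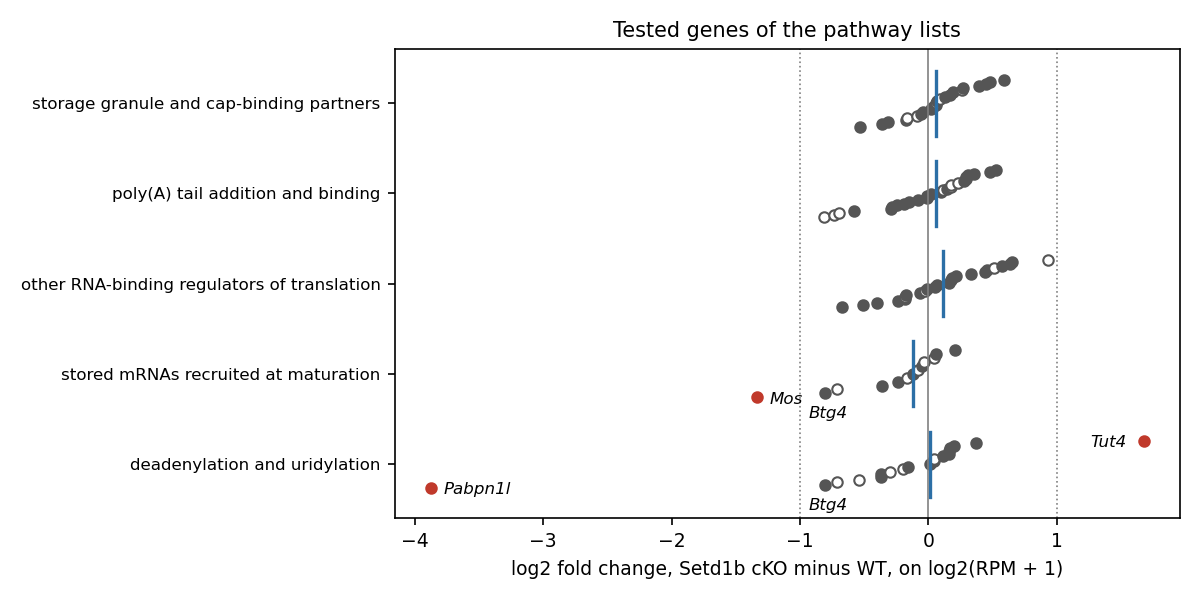
Log2 fold change (cKO minus WT, on log2(RPM + 1)) of the tested genes of each list; filled points were found by symbol and open points by position, red points passed the threshold, blue lines are list medians and dotted lines mark a 2-fold change. Pabpn1l (-3.88) and Mos (-1.34) lie below the lower line, and Tut4, with 0 to 2 reads in WT libraries, lies above the upper line.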

How the data were processed

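Per the labels and the study's methods, RNA of single GV oocytes (4 Setd1b cKO and 3 Setd1b WT) was converted with the SMARTer Ultra Low kit, which primes cDNA on poly(A) tails, and sequenced as single reads. The authors trimmed reads, mapped them with Hisat to GRCm38, removed hits of low mapping quality, which lowers values of near-identical genes, and quantified oocyte transcripts with merged isoforms in SeqMonk. The submitters' processing notes also name bcl2fastq 1.8.4 and featureCounts 1.4.4. Whether counting used strand is not given in the sources used here. Each deposited value is a log2 RPM, for which the authors divided by the mapped reads of the library. With 0.9 read standing for 0 reads, 100% of values were whole reads within 0.05 read, which gave each library's depth.

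The members and lists were chosen with earlier results of these data known. RPM was transformed to log2(RPM + 1), 18179 of 33437 transcripts, those that reached 1 RPM in 3 or more libraries, were tested, and limma 3.58.1 (R 4.3.3; lmFit, then eBayes with trend) compared the genotypes without covariates. Benjamini-Hochberg adjustment covered all tested transcripts, and calls needed a change of more than 2-fold at an adjusted p under 0.05. The script was tested on simulated data. A gene was found where the table's symbol and strand matched. Genes without such a row were matched by position, with shared bases making up 0.5 or more of both spans joined (GENCODE M21), except the Zar1l row, which covers the gene but overlaps less, and this was chosen after seeing the data. Shares of reads were compared by a two-sided exact permutation test, whose smallest p is 0.0571 for 4 against 3. Named genes were all members, Setd1b and, of each list, those past the threshold and the 2 with the highest mean, and Eif4e1b, Cpeb2, Cpeb3, Cpeb4, Pcf11 and Cpsf2 were added after their values were seen. Same-numbered libraries were not treated as pairs.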

Additional observations from a re-analysis of the deposited data

Results flagged for a closer look

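Of the 33 sets of 4 cKO values examined, chance alone flags about 1 in 20, and 1 had a library set apart. Cpeb3 was at 19.9 RPM in cKO 3 against 17.1 to 17.5 RPM in the other cKO libraries, a gap of 0.853 of the range of the 4 values.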

How the results depend on the processing

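None of the genes studied was called in any of the 21 alternatives, which changed the pseudocount, filter, scaling, model or libraries, and Mos and Pabpn1l were called in all of them. The number of list genes past the threshold by symbol, 2 with the row of Tut4 counted, was 1 with a pseudocount of 5 RPM, without a filter and with a mean of at least 4 RPM, and 1 to 2 when 1 library was left out. In each case Tut4, which is described without a test, was the gene that dropped out, and Mos stayed. Centring on the median transcript moved the median of all transcripts from 0.12 to -0.03 and that of the 8 genes from -0.15 to -0.31. The median of the 8 genes was -0.0769 scaled to reads in transcripts, -0.0830 without WT 1, -0.0831 without WT 2, -0.0886 without cKO 4 or with the replicate block, and -0.26 without cKO 2. Centring also reversed Eif4e (-0.10), Wdr33 (-0.0582) and Cnot6l (-0.11), quantile normalisation reversed Cpeb2 (-0.0718), and scaling to reads in transcripts reversed Cpeb1 (0.0275) and Lsm14b (0.0622). With 1 library left out, log2 fold changes near 0 changed sign in Cpeb1 (-0.0893 to 0.00534), Lsm14b (-0.13 to 0.11), Pabpc1l (-0.23 to 0.00806), Patl2 (-0.63 to 0.25), Eif4e (-0.12 to 0.27), Wdr33 (-0.0402 to 0.22), Ccnb1 (-0.65 to 0.17), Cpeb2 (-0.0108 to 0.29) and Cnot6l (-0.0568 to 0.20). The cause was not tested. All calls fell from 1038 to 553 with a pseudocount of 5 RPM and to 303 without a filter, and were 592 without cKO 1, 538 without cKO 3, 1292 without cKO 4, 400 without WT 1, 289 without WT 2 and 1537 without both cKO 4 and WT 3.

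Same-numbered libraries deviated with correlations of 0.19, 0.29 and -0.13, and WT 1, 2 and 3 each correlated best with cKO 2, 2 and 4. The numbers were therefore not taken as pairs, although this check cannot exclude a shared mother or collection. With the number as a replicate block, which drops cKO 4, calls numbered 1403, against 1292 without cKO 4 and with no block. None of the genes studied passed the threshold, Zar1 (-0.64, adjusted p = 0.0421) and the Zar1l row (-0.65, adjusted p = 0.0323) passed the adjusted p but not the fold, and Patl2 (0.25) and Ccnb1 (0.17) reversed. Leaving out cKO 4 alone gave the same log2 fold changes for these 4 genes.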
